A study of Mus musculus with 17 samples.

Results

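Multipotent adult spermatogonial-derived stem cells (MASCs) from Oct4-GFP mice (OG lines, MASC.1 and MASC.2) were compared with MASC lines from 2 other kinds of mice. The members are 6 of the 17 RNA-seq samples of the series, namely 2 OG lines against 4 other lines, chosen by the strain on their labels. MASC.3 and MASC.4 were of the strain 129mix, a mix of C57Bl6 and 129S, and MASC.5 and MASC.6 of Gt(ROSA26)Sor-lacZ (Rosa), in which the ROSA26 locus carries lacZ. OG mice carry GFP under the regulatory sequence of Pou5f1, the gene of the transcription factor Oct4. Neither GFP nor lacZ is a row of the tables, so the reporters themselves were not measured. All 6 lines arose without added factors from spermatogonial stem and progenitor cells (SSCs) of mice over 3 months old during long culture, were started from colonies picked by hand, and grew on mouse embryonic fibroblast (MEF) feeders in medium for embryonic stem cells (ESCs) with leukaemia inhibitory factor, for at most 20 passages. No source says from how many animals or SSC lines the 2 lines of a strain came, and the genetic background of the OG and Rosa mice is not given. The p-values therefore measure the spread between these 6 lines. Strain, reporter and origin of the line cannot be told apart.

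MASCs resemble ESCs: they form compact colonies, express the Oct4, Nanog and Sox2 network and can contribute to many tissues. Lines of such cells are known to differ from each other in the genes of imprinted loci, in lineage genes that are expressed at low level, and in the share of cells that pass through a state like that of the embryo at the 2-cell stage. Feeder fibroblasts collected with the colonies add collagen and other mesenchymal transcripts to the RNA of the culture.

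The OG libraries stood apart in base composition. Among 13079 coding transcripts with a mean FPKM (fragment count scaled to transcript length and library size) of at least 1 and a known GC content, the median difference of OG from the other lines on the log2(FPKM + 1) scale was -0.47 in the lowest of 5 equal groups by GC content and 0.33 in the highest. The trend was present in both OG lines, at -0.34 and 0.24 in MASC.1 and at -0.43 and 0.25 in MASC.2, against the mean of the other 5 lines. The same measure ran the other way in each of the 4 other lines, from 0.11 to 0.25 in the lowest group and from -0.22 to -0.07 in the highest. As the OG lines enter the mean that these 4 are set against, this is largely the counterpart of the OG trend. ESC.1 (OG) differed from ESC.2 (129mix) alike, at -0.36 and 0.32, but in SSC lines the trend did not follow the strain label. SSC.1 (OG) and SSC.3 (C57Bl/6J) had it in the direction of the OG MASC lines, and SSC.2 (OG) and SSC.4 (129mix) in the opposite one. No label gives a batch, so in MASC lines the trend and the strain cannot be told apart, and counts with the trend kept and removed are given for the lists below. A level in bulk RNA also does not separate fewer cells of a type from less RNA per cell.

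**Figure D1:**
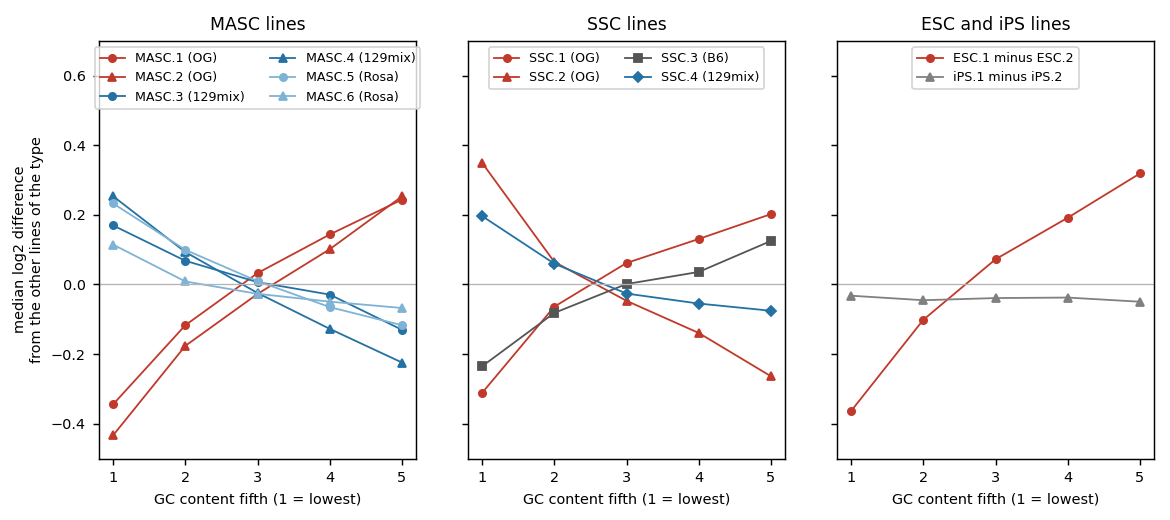
Median difference in log2(FPKM + 1) (vertical axis) over coding transcripts in 5 equal groups of GC content (horizontal axis, 1 lowest), for each MASC and SSC line against the mean of the other lines of its type and for ESC.1 minus ESC.2 and iPS.1 minus iPS.2. Both OG MASC lines rise from left to right, at -0.34 and -0.43 in the lowest group and 0.24 and 0.25 in the highest, the 4 other MASC lines fall, and the pair of iPS lines is flat. The fall of the 4 is largely the counterpart of the OG rise, since the OG lines enter their reference mean.

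Of 31123 autosomal transcripts, 359 (1.15%) were higher and 465 (1.49%) were lower in OG than in the other MASC lines in limma with Benjamini-Hochberg adjustment. A call needed a difference of 1 or more on the log2 scale and an adjusted p under 0.05. The medians of the called differences were 1.44 and -1.28. In all 359 and 465 the OG lines did not overlap the other 4, which was also so for 17.2% of all transcripts on the higher side and 17.9% on the lower side, called or not. With 2 lines against 4 the exact permutation test of a single transcript gives no p under 0.0667. The counts leaned on single lines: without MASC.2, 779 were higher, without MASC.1 546 were higher, without MASC.4 113 were higher and 198 lower, without MASC.3 145 and 223, and without MASC.5 153 and 224. After the GC trend had been removed from the 13079 coding transcripts, 496 (3.79%) were higher and 278 (2.13%) lower, against 684 (5.23%) and 532 (4.07%) of the same transcripts before. The restriction to these transcripts therefore raised the counts by itself, and the counts of list members below are given on them with the trend kept and with it removed. Those list counts are to be read beside the shares of the 13079 transcripts and not beside those of the 31123. Both ways of counting shared 414 higher and 227 lower transcripts, and none changed direction.

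Calls that separated OG lines from another strain outnumbered those between 129mix and Rosa. In a fit with 3 strain groups and 2 lines on each side, OG lines differed from 129mix lines by 133 transcripts higher (0.427%) and 224 lower (0.72%), and from Rosa lines by 116 higher (0.373%) and 212 lower (0.681%). Between 129mix and Rosa, 2 transcripts were called (0.00643%), the microRNA hairpins Mir6954 and Mir6395, and 182 passed at an unadjusted p under 0.05 in limma. Of the called transcripts, 714 lay at least 1 away from the mean of either other strain, in the direction of the call. Across the 31123 transcripts, Pearson's r was 0.966 for the OG pair, 0.985 for the 129mix pair, 0.977 for the Rosa pair, between 0.975 and 0.982 for a 129mix line with a Rosa line, and between 0.943 and 0.948 for an OG line with any other. These correlations are across genes, which are not independent replicates. These counts moved with single lines. Without MASC.3, MASC.4, MASC.5 or MASC.6, OG against 129mix gave 63, 56, 127 and 127 calls in all (357 with every line), OG against Rosa 18, 18, 121 and 101 (328 with every line), and 129mix against Rosa 30, 25, 40 and 29.

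**Figure D2:**
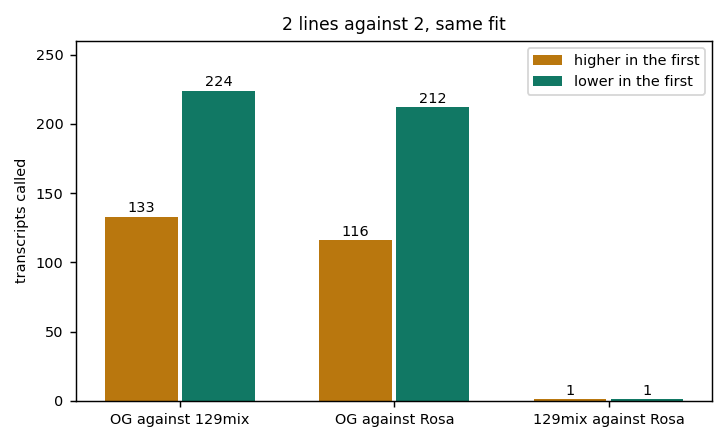
Number of transcripts called (vertical axis) in each pair of strains, with 2 lines on either side and a shared fit (limma, log2 difference of at least 1, adjusted p under 0.05), higher and lower in the strain named first. OG differed from 129mix by 133 and 224 transcripts and from Rosa by 116 and 212, while 129mix and Rosa differed by 1 in each direction.

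Among transcripts of at least 200 bases, the largest called increase was that of Baiap2l1 (NM_025833, chromosome 5 of mm9, 145025394 to 145118981), a protein with an inverse BAR domain that links membranes to actin. It was at 7.08 and 7.55 in MASC.1 and MASC.2 and at 1.32, 1.18, 1.04 and 1.34 in MASC.3 to MASC.6, on the log2(FPKM + 1) scale. In FPKM these are 134 and 187 against 1.06 to 1.54, so both OG lines stood far above a tight group of 4. The difference was 6.09 ± 0.17 (SE; adjusted p = 0.00135, limma with Benjamini-Hochberg). ESC.1 (OG) had 5.81 and ESC.2 (129mix) 0.97, the same order with 1 line each. The 4 SSC lines lay between 1.79 and 2.81 whatever their strain, and the MASC difference exceeded the SSC difference by 5.52 ± 0.34 (SE; adjusted p = 0.00415, limma).

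Ipp (NM_008389, chromosome 4, 116180154 to 116210840), a kelch-repeat gene first described with an intracisternal A-particle promoter in placenta, was at 6.03 and 6.55 in the OG lines and at 2.41, 2.41, 2.35 and 2.43 in the others. The difference of 3.89 ± 0.15 (SE; adjusted p = 0.00288, limma with Benjamini-Hochberg) had no counterpart in ESCs, where ESC.1 had 2.31 and ESC.2 2.29. Both iPS lines, which are 129mix, had Ipp at 5.48 and 5.07, nearer to the OG MASC lines than to the 129mix ones. Nnat (neuronatin, NM_010923, chromosome 2, 157385814 to 157388261), an imprinted gene expressed from the paternal copy, was at 4.57 and 5.86 in OG lines, at 0.01 in both 129mix lines, and at 0.88 and 1.78 in Rosa lines. The difference was 4.54 ± 0.70 (SE; adjusted p = 0.0326, limma), and the call was lost without any of MASC.1 to MASC.5 (adjusted p up to 0.101). All 4 SSC lines had Nnat between 3.54 and 5.91 and both ESC lines about 3 (2.98 and 3.25), so its low level was found in the 129mix and Rosa MASC lines.

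Olig1 and Olig2, neighbouring genes of bHLH factors of the oligodendrocyte and motor neuron lineages on chromosome 16, went the other way. Olig2 (NM_016967, 91225795 to 91228922) was at 0.08 and 0.16 in OG lines and at 4.26, 3.81, 3.06 and 3.58 in MASC.3 to MASC.6. Olig1 (NM_016968, 91270014 to 91272184) was at 0.20 and 0.22 against 4.11, 3.92, 3.55 and 4.51. Both genes were thus near 0 in the 2 OG lines and expressed in all 4 others, with differences of -3.56 ± 0.35 (SE; adjusted p = 0.014) for Olig2 and -3.81 ± 0.28 (SE; adjusted p = 0.00796) for Olig1 in limma with Benjamini-Hochberg adjustment. Without MASC.4 the adjusted p of Olig2 was 0.057. In SSCs both were near 0 in every line, at most 0.22 for Olig1 and 0.06 for Olig2. In ESCs the OG line was not the lower of the pair for Olig1 (2.79 in ESC.1, 2.07 in ESC.2), while Olig2 was at 1.50 and 1.84. The MASC difference was below the SSC difference by -3.79 for Olig1 (adjusted p = 0.0185) and by -3.57 for Olig2 (adjusted p = 0.0462, limma). With both genes near 0 in all SSC lines, this test mostly restates the MASC difference.

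**Figure D3:**
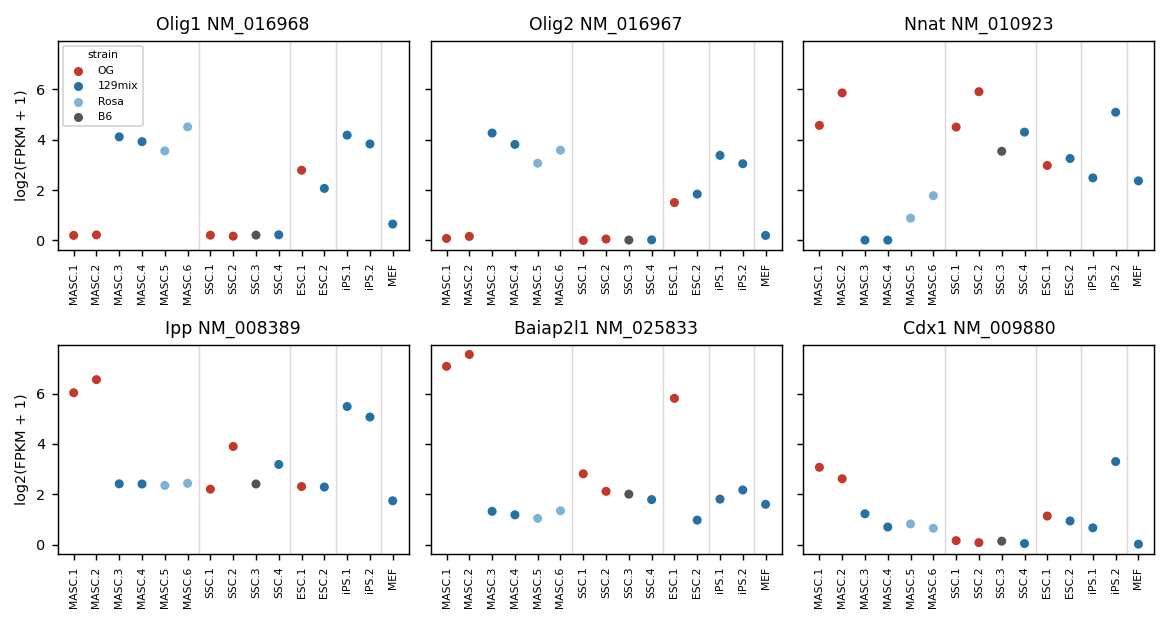
Level on the log2(FPKM + 1) scale (vertical axis) of 6 transcripts in each MASC, SSC, ESC, iPS and MEF sample (horizontal axis), coloured by strain. Olig1 and Olig2 are near 0 in the 2 OG MASC lines and above 3 in the other 4, Nnat and Ipp are higher in the OG MASC lines, and Baiap2l1 is higher in the OG MASC lines and in ESC.1.

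The sequences around the starts of Baiap2l1, Nnat and Olig2 are shown because these genes differed strongly, Baiap2l1 and Nnat being higher and Olig2 lower in OG lines. They come from the RefSeq promoter table on GRCm38.p6, another build than mm9, with 250 bases before and 50 after the start, and the capitals mark CG dinucleotides. They are those of Baiap2l1 (chr5:144358063-144358362, minus strand), Nnat (chr2:157559828-157560127, plus strand) and Olig2 (chr16:91225300-91225599, plus strand).
Baiap2l1: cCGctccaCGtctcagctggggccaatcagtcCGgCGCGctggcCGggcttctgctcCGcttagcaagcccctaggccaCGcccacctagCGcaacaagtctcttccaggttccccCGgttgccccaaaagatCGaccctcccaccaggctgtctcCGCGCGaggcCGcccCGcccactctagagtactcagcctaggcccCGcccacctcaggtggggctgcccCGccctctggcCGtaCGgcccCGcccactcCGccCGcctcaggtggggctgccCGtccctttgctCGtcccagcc
Nnat: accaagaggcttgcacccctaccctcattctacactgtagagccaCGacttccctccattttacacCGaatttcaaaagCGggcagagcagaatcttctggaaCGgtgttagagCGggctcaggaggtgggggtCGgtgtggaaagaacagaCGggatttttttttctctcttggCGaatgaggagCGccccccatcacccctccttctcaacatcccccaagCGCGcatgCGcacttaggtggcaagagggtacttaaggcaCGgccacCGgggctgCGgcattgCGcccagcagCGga
Olig2: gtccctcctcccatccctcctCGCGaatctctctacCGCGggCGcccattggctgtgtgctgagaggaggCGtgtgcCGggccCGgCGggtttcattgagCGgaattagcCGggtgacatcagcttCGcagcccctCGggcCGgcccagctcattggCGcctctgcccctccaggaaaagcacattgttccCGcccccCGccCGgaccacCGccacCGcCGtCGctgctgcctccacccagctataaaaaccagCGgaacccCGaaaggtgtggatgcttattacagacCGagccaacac
The windows of Baiap2l1 and Olig2 hold 25 CG dinucleotides each and that of Nnat holds 17, counted on the strand shown. Over all 32851 windows in the table the median was 7, and 18.4% had at least 25 and 31.4% at least 17. No methylation was measured in these files.

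Among the other leading increases, both OG lines lay apart from the rest. Obsl1, a cytoskeletal linker, had a difference of 3.47 ± 0.17 (SE), Hist1h2ao, a replication-dependent histone gene, 3.96 ± 0.13, and Ly6e (NM_001164040), a GPI-anchored surface protein, 3.46 ± 0.30. Spp1 (NM_001204203), the secreted phosphoprotein osteopontin, was at 8.10 and 6.97 in OG lines against 2.81 to 3.94. Nip7 (NM_001164472), a ribosome biogenesis factor, was at 3.56 and 5.83 against 0.14 to 0.52. Each of these values is that of 1 listed transcript and not a sum over the gene. When FPKM was summed per gene symbol, 11 of 54 named transcripts lost their call and 1 changed sign. The calls of Spp1 and Nip7 were lost without MASC.3, MASC.4 or MASC.5, and also without MASC.1 for Spp1 and without MASC.6 for Nip7 (adjusted p up to 0.072 and 0.097 in limma). Lyz2, the lysozyme of macrophages and other myeloid cells, was lower, at 1.28 and 2.71 against 6.28, 6.54, 6.39 and 5.29. Its level was 11.70 in the MEF sample, 2.32 in ESC.1 and 6.66 in ESC.2, and its call was lost without MASC.1, MASC.3, MASC.4 or MASC.5 (adjusted p up to 0.085). Of the 24 leading transcripts, 19 differed by at least 1 in the same direction between the ESC lines and none in the opposite one. Over all transcripts, 3.64% were at least 1 higher in ESC.1 and 2.74% at least 1 lower, a share that includes transcripts too low to differ by 1. ESC.1 also shares the GC trend and a higher fibroblast sum with the OG MASC lines. All 21 leading transcripts with a GC value were also called after removal of the GC trend. They were chosen as the largest differences, beside which the trend was small (group medians of -0.47 to 0.33). Its removal could hardly undo such calls, and transcripts of a gene can share a GC value.

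**Figure D4:**
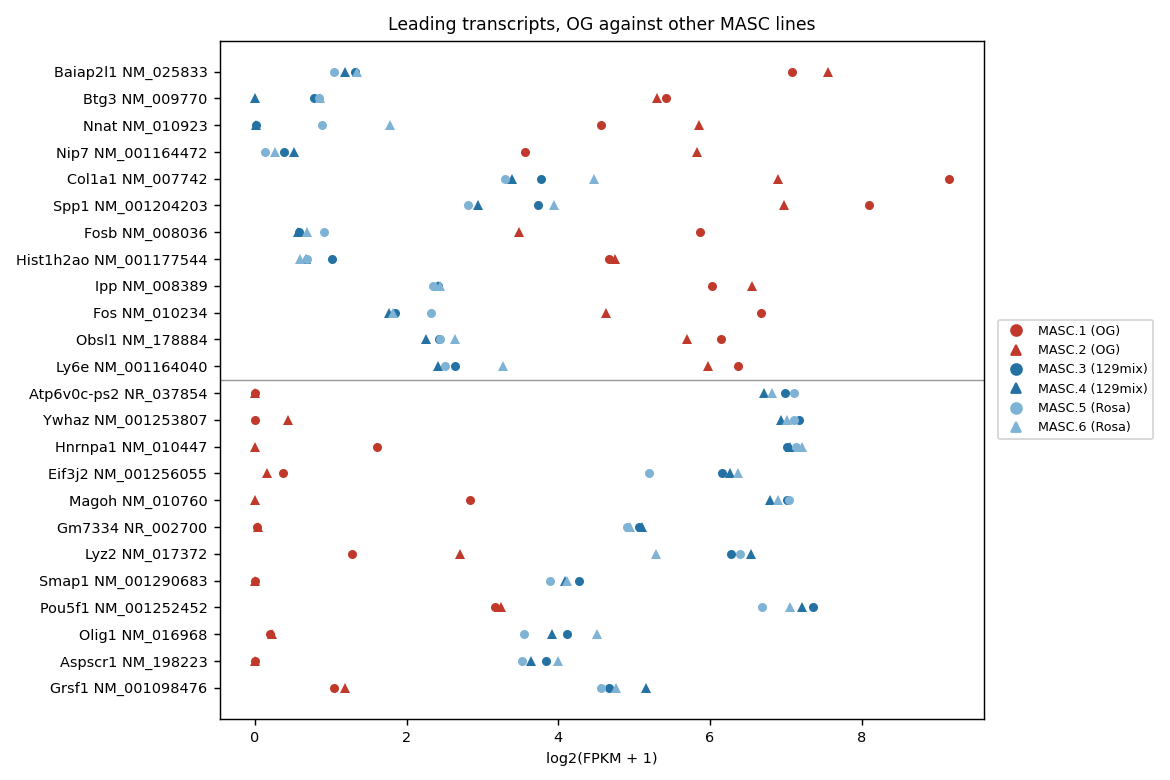
Level on the log2(FPKM + 1) scale (horizontal axis) of the 12 largest called increases (above the line) and the 12 largest called decreases (below it) in each of the 6 MASC lines, red for OG, dark blue for 129mix and light blue for Rosa. In every row the 2 red points lie on one side of the 4 blue ones, for example 7.08 and 7.55 against 1.04 to 1.34 for Baiap2l1.

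Many of the leading decreases were transcripts that share their locus with other listed transcripts, between which Cufflinks divides the signal of a locus, and their single values are uncertain. Atp6v0c-ps2, a pseudogene listed over the same locus as the proton pump gene Atp6v0c, was at 0.00 and 0.01 in OG lines and at 6.71 to 7.11 in the others. Its partner Atp6v0c was at 8.28 and 8.59 in OG lines and between 6.70 and 7.36 in the others, a call in the opposite direction (1.39). Likewise Ywhaz NM_001253807, a transcript of a 14-3-3 protein, was at 0.00 and 0.44 against 6.94 to 7.17, whereas Ywhaz NM_011740 was higher in OG lines by 1.16. The pseudogene Gm7334, listed over the antiproliferative gene Btg3, was at 0.03 and 0.04 against 4.91 to 5.11, and Btg3 itself at 5.42 and 5.30 against 0.00 to 0.86.

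Hnrnpa1 NM_010447, a splicing factor, differed by -6.30, and Magoh NM_010760, a part of the exon junction complex, by -5.52. Their partners NM_001039129 (0.69) and NM_001282737 (0.79) were not called. The call of Magoh NM_010760 was lost without any of MASC.3 to MASC.6 (adjusted p up to 0.094 in limma). Eif3j2, listed over the same locus as the translation factor gene Eif3j1, differed by -5.73, while Eif3j1 itself was listed at 0.06 in MASC.6 and at 4.63 to 5.95 in the other 5 lines. Smap1 NM_001290683, Aspscr1 NM_198223 and Grsf1 NM_001098476, transcripts of a membrane-traffic regulator, a tether of the glucose transporter and an RNA-binding protein, differed by -4.09, -3.75 and -3.67. For Ctnnb1, the gene of β-catenin, NM_007614 was higher by 1.24 and NM_001165902 lower by -2.41. In 13 gene symbols a transcript was called higher and another called lower. Of 787 symbols with a called transcript, 569 were called when the FPKM of all transcripts of the symbol was summed.

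In SSC lines some of these transcripts split with the GC trend and not with the strain label. Ywhaz NM_001253807 was at 0.00 in SSC.1 and SSC.3 and at 6.21 and 6.50 in SSC.2 and SSC.4. Magoh NM_010760 was likewise at 0.00 in SSC.1 and SSC.3 and at 6.58 and 6.47 in SSC.2 and SSC.4. Others did not: Gm7334 was at 4.61, 5.89, 0.01 and 4.84 in SSC.1 to SSC.4, and Atp6v0c-ps2 was at most 0.97. The part of the GC trend in these calls was not tested.

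Oct4 itself was at 9.98 and 9.73 in OG lines and at 9.73, 9.60, 9.66 and 9.44 in the others (Pou5f1 NM_013633, chromosome 17, 35642977 to 35647722), overlapping ranges with a difference of 0.25 ± 0.11 (SE; adjusted p = 0.276, limma with Benjamini-Hochberg). After removal of the GC trend the difference was -0.011. A shorter Pou5f1 transcript, NM_001252452, was at 3.17 and 3.25 in OG lines against 7.36, 7.21, 6.69 and 7.06, a difference of -3.87 ± 0.20 (SE; adjusted p = 0.00437). Summed over the gene, the difference was 0.027. Nanog, the homeobox factor of the pluripotent network, differed by 0.25 ± 0.33 and Sox2, the partner of Oct4, by -0.29 ± 0.08 (adjusted p = 0.764 and 0.116), and Nanog changed sign without MASC.1, to -0.31.

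Of 28 pluripotency genes found, 2 were higher and 1 lower, against 1.15% and 1.49% of all transcripts, and their median difference was -0.21 (0.00 over all transcripts). Klf4, a reprogramming factor and a target of leukaemia inhibitory factor signalling, was higher, at 6.96 and 6.15 against 4.99 to 5.35. Tbx3, a T-box factor of self-renewal, was also higher, at 4.46 and 3.94 against 2.66 to 2.93. Their differences were both 1.41, and their calls were lost without any of MASC.3 to MASC.6, and for Klf4 also without MASC.1 (adjusted p up to 0.128 and 0.070, limma). Dppa2, which keeps bivalent promoters in a primed state, was lower, at 5.30 and 5.36 against 5.99 to 6.51. Its difference of -1.05 became -0.69 after removal of the GC trend, below the threshold of 1, and its call was lost without any of MASC.1 to MASC.5 (adjusted p up to 0.130). The median level of the list lay between 5.83 and 6.14 in the 6 lines, beside 0.07 in MEFs. Of its 27 members with a GC value, 2 were higher and 2 lower with the trend kept, and 2 and 0 with it removed.

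Among 31 targets of Nodal, BMP, Wnt, FGF and LIF signalling, 4 were higher and none lower (1.15% and 1.49% of all transcripts), with a median difference of 0.12. Of 30 with a GC value, 5 were higher and 1 lower with the trend kept, and 5 and 0 with it removed. Of all 13079 transcripts, 5.23% were higher with the trend kept and 3.79% with it removed. Fos and Egr1, immediate-early transcription factors that respond to growth factors, had the largest differences of the list. Fos was at 6.68 and 4.62 in OG lines against 1.77 to 2.32, and Egr1 at 6.32 and 4.78 against 2.63 to 3.22. Junb was at 6.42 and 6.48 against 4.49 to 5.12. Fosb, a leading increase outside the list, was at 5.87 and 3.49 against 0.57 to 0.91, and Jun, picked after its values were seen, at 6.69 and 5.45 against 3.24 to 3.45. For each of these 5 genes the OG lines lay above all others, in Fos, Fosb, Egr1 and Jun with MASC.1 highest, the line that also had the highest fibroblast sum. MEFs had Fos at 7.34, Fosb at 3.93, Egr1 and Junb both at 8.02 and Jun at 6.16, above all 4 other MASC lines. MASC.1 was above the MEF sample in Fosb (5.87 and 3.93) and Jun (6.69 and 6.16), and below it in Fos, Egr1 and Junb. The part of fibroblast RNA was not tested. ESC.1 was above ESC.2 in Fos (5.47 and 1.97), Fosb (5.14 and 0.51), Egr1 (5.48 and 3.67) and Junb (5.83 and 4.51). The calls of Fos, Fosb and Egr1 were lost without any of MASC.3 to MASC.6, and that of Junb without any of MASC.1 to MASC.5 (adjusted p up to 0.121, limma). Cdx1, a Wnt and retinoic acid target of the posterior embryo, was higher by 1.99 ± 0.23 (SE), at 3.07 and 2.62 against 0.65 to 1.22, and was at 1.14 and 0.94 in ESCs. Its call was lost without MASC.1, MASC.4 or MASC.5 (adjusted p up to 0.066).

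Of 41 early lineage genes, Sox1, a neural plate factor, was higher and Olig2 lower, near the 1.15% and 1.49% of all transcripts, with a median of -0.06. On the 20 with a GC value, 0 were higher and 2 lower with the trend kept, and 0 and 3 with it removed. Sox1 was at 2.12 and 2.73 against 1.17 to 1.42, a low level throughout, and its call was lost without any of MASC.2 to MASC.6 (adjusted p up to 0.114; without MASC.2 the difference was 0.81). Hand1, a trophoblast and mesoderm factor, was at 1.34 and 3.46 against 0.48 to 1.06, and Cer1, a Nodal antagonist, at 0.14 and 0.09 against 0.33 to 3.10, both without a call. None of the 23 extraembryonic endoderm genes was called, and 22 of their differences were above 0 (median 0.71), beside 1.15% called higher and 45.8% above 0 among all transcripts. With a GC value there were 19, of which 2 were higher with the trend kept and 1 with it removed. The median level of the list was 2.21 in MASC.1 and 3.31 in MASC.2, beside 2.36 in MEFs. It was 2.55 in MASC.3, above MASC.1, and 1.26 to 1.64 in MASC.4 to MASC.6. Amn, the endocytic partner of cubilin in visceral endoderm, was at 1.74 and 3.57 against 0.38 to 0.95 (2.06 ± 0.56, SE; adjusted p = 0.103, limma). Col4a2, a basement membrane collagen, was at 5.94 and 5.80 against 2.94 to 5.32, and at 7.59 in MEFs.

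The 2-cell-like list had its highest level in MASC.2. It includes the Zscan4 cluster and the Usp17l family, which are transcribed at the 2-cell stage and in a small share of cells of pluripotent cultures. It also holds other genes, such as Zfp809. Over 24 genes found, the median level was 1.87 in MASC.1 and 3.91 in MASC.2, against 0.67, 0.61, 0.45 and 0.54 in MASC.3 to MASC.6. By summed FPKM only MASC.2 stood apart, at 633, with 189 in MASC.1 and 135 to 186 in MASC.3 to MASC.6. The sum also holds members expressed outside this state, since it was 48 in MEFs, where 14 of the 24 were listed at 0. For 21 of the 24, both OG lines lay above all others (17.2% of all transcripts did), and the median difference was 2.16, yet none was called higher. In the other 3 both OG lines lay below all others (17.9% of all transcripts did). Zscan4f, with the largest difference, was at 4.12 and 6.67 against 1.51 to 2.14 (3.50 ± 0.77, SE; adjusted p = 0.067, limma), so the spread between the OG lines was large beside the gap. In the test over the transcripts with a GC value, 8 of 11 were called higher and 1 lower, both with the trend kept and with it removed. Of all 13079 transcripts in that test, 5.23% were higher with the trend kept and 3.79% with it removed. The Zscan4 copies are near-identical, so reads that align to several of them were left out and the split among copies is uncertain. The ESC lines had medians of 1.16 (ESC.1, OG) and 1.88 (ESC.2, 129mix), with the OG line lower, and MEFs had 0.00. Zfp809, a repressor of retroviral elements, was the only called member, lower by -1.47, and its call was lost without any of MASC.1 to MASC.5 (adjusted p up to 0.107).

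Of 36 germ cell genes, Hormad1, a protein of the meiotic chromosome axis, was lower and none was higher, near the 1.49% of all transcripts called lower, with a median of -0.01. Of 22 with a GC value, 2 were higher and 2 lower with the trend kept, and 1 and 0 with it removed. Hormad1 (transcript NM_001289532) was at 2.20 and 2.19 against 3.90 to 4.38 (-1.91 ± 0.16 SE, adjusted p = 0.0102 in limma). Its difference was -0.95 after removal of the GC trend. Stra8, the retinoic acid target of meiotic entry, was at 3.14 and 5.23 against 0.88 to 2.01 (adjusted p = 0.09), and Dazl and Ddx4, germ cell RNA-binding proteins, differed by -1.18 and -1.17 without a call. Of 57 imprinted genes, Nnat was called higher, near the 1.15% of all transcripts, and the median was 0.02. The 36 with a GC value had 4 higher and 1 lower with the trend kept, and 2 and 0 with it removed. Meg3 and H19, maternally expressed noncoding RNAs, were at 6.13 and 4.24 against 0.97 to 2.27 and at 8.50 and 5.29 against 2.06 to 3.65, both without a call. Grb10, an imprinted growth regulator, instead separated the Rosa lines (5.67 and 5.59) from MASC.1 to MASC.4 (3.73, 2.55, 1.98 and 2.86). Of 23 genes of DNA methylation and Polycomb repression, 2 were lower and none higher (1.49% and 1.15% of all transcripts), with a median of -0.18. For the 22 with a GC value, 1 was higher and 4 lower with the trend kept, and 1 and 2 with it removed. Dnmt3b (transcript NM_001122997), a de novo methyltransferase, was at 5.21 and 5.40 against 6.20 to 6.66. Suz12 (transcript NM_199196), a core subunit of Polycomb repressive complex 2, was at 5.04 and 4.78 against 5.76 to 6.24. Suz12 moved from -1.20 to -0.69 after removal of the GC trend, and Dnmt3b from -1.03 to -1.12. Without any of MASC.1 to MASC.5 both calls were lost, and that of Dnmt3b also without MASC.6 (adjusted p up to 0.112 for Dnmt3b and 0.101 for Suz12, limma).

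**Figure D5:**
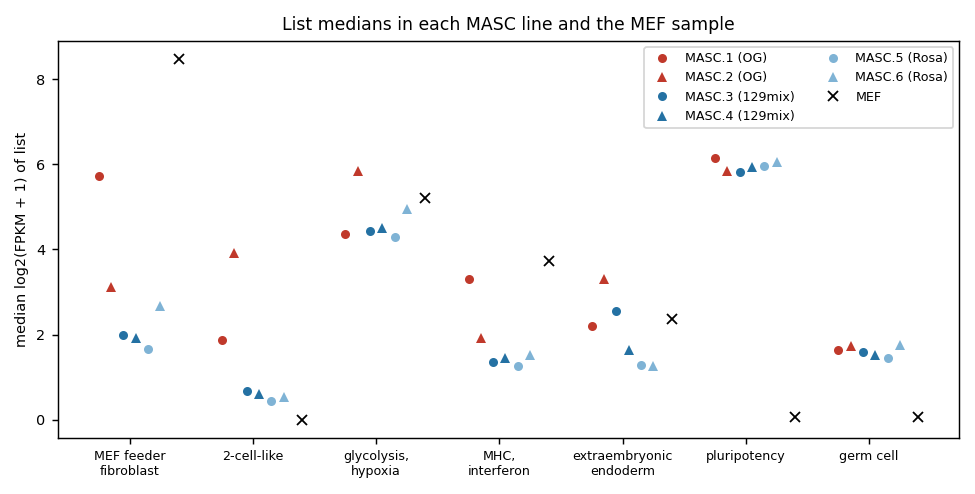
Median level on the log2(FPKM + 1) scale (vertical axis) over the genes of 7 lists (horizontal axis) in each MASC line and the MEF sample. MASC.1 is highest of the 6 lines for the fibroblast list (5.73) and MASC.2 for the 2-cell-like list (3.91), whereas the pluripotency medians lie between 5.83 and 6.14.

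Fibroblast transcripts had their highest levels in the OG libraries, above all in MASC.1. The summed FPKM of 36 fibroblast genes was 5356 in MASC.1 and 1660 in MASC.2 against 742 to 942 in the 4 others, and 20231 in the single MEF sample, which is of the strain 129mix. All 36 differences were above 0, and in 26 both OG lines lay above all others, with a median of 2.27, and 3 were called higher. Among all transcripts 45.8% of the differences were above 0, in 17.2% both OG lines lay above the others, and 1.15% were called higher. These were Col1a1, the main chain of fibroblast collagen (9.15 and 6.89 against 3.30 to 4.48), Fbln2, a matrix protein (5.72 and 4.35 against 2.13 to 2.98), and Tagln, a contractile protein (7.83 and 7.19 against 5.93 to 6.40). Each of these 3 calls was lost without MASC.1, MASC.3, MASC.4, MASC.5 or MASC.6 (adjusted p up to 0.125, limma). Col1a1 is listed at 0 in the MEF sample with the mark of Cufflinks for too many fragments, so the MEF sum lacks it. In the test over transcripts with a GC value, 21 of 33 were called higher with the trend kept and 14 with it removed. Of all 13079 transcripts in that test, 5.23% were higher with the trend kept and 3.79% with it removed.

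Of the 359 transcripts higher in OG lines, 199 were at least 1 higher in MEFs than in each of the 4 other MASC lines, and of the 465 lower in OG lines, 356 were at least 1 lower in MEFs than in each of the 4. The same 4 lines enter the calls and these counts, so a share over all transcripts is no background for them. When only transcripts under 1 FPKM in MEFs were tested, 22 were higher and 77 lower among 16770. The part of fibroblast RNA in these differences was not tested. MEFs had Baiap2l1 at 1.60, Ipp at 1.74, Cdx1 at 0.02 and Zscan4f at 0.00, genes picked after their values were seen.

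Antigen presentation genes were among the calls. Of 37 genes of the major histocompatibility complex and the interferon response, 4 were higher and none lower, with a median of 1.00 and 32 above 0, beside 1.15%, 1.49% and 45.8% of all transcripts. Of 30 with a GC value, 10 were higher with the trend kept and 7 with it removed (5.23% and 3.79% of all 13079). H2-T23, a nonclassical class I molecule, was at 5.40 and 6.34 against 3.58 to 3.94, and H2-K1, a classical class I molecule, at 6.20 and 5.38 against 3.74 to 4.35. Psmb9, an immunoproteasome subunit, was higher by 1.83 ± 0.25 (SE) and H2-T24 by 1.38 ± 0.25. MEFs had H2-K1 at 7.20 and H2-T23 at 5.39, and the list median was 3.31 in MASC.1, 1.92 in MASC.2, 1.25 to 1.53 in the 4 others and 3.72 in MEFs. All 4 calls were lost without MASC.3, MASC.4 or MASC.6, and also without MASC.5 for H2-T23, H2-K1 and H2-T24, without MASC.1 for Psmb9 and H2-K1, and without MASC.2 for Psmb9 and H2-T24 (adjusted p up to 0.122, limma).

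Of 29 genes of glycolysis and hypoxia, 2 were higher and none lower, with 28 differences above 0 and a median of 0.86. Among all transcripts 1.15% were higher and 45.8% above 0. On the 27 with a GC value, 10 were higher with the trend kept and 6 with it removed (5.23% and 3.79% of all 13079). Ndrg1, a hypoxia-induced growth regulator, was at 4.25 and 5.25 against 2.33 to 2.74 (2.29 ± 0.32, SE; adjusted p = 0.0266). Eno2, the neuronal enolase, was at 3.52 and 2.49 against 0.84 to 1.44 (1.95 ± 0.36, SE; adjusted p = 0.0451, limma with Benjamini-Hochberg). MASC.2 had the highest level of this list, with a summed FPKM of 11075 against 5604 in MASC.1 and 4698 to 5198 in the others. The median level of the list was 5.85 in MASC.2. In MASC.1 it was 4.35, within the range of 4.30 to 4.94 in the others. Slc2a1, the glucose transporter of most growing cells, was at 8.94 in MASC.2 and 7.08 in MASC.1 against 6.70 to 7.23, so MASC.1 did not stand apart. The calls of Ndrg1 and Eno2 were lost without any of MASC.3 to MASC.6, and that of Eno2 also without MASC.1 (adjusted p up to 0.089 and 0.128).

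Of 28 genes of the p53 pathway and the cell cycle, 2 were higher and none lower (1.15% and 1.49% of all transcripts), with a median of -0.10. The 28, all with a GC value, had 4 higher and 1 lower with the trend kept, and 2 and 0 with it removed. Of all 13079 transcripts, 5.23% were higher and 4.07% lower with the trend kept, and 3.79% and 2.13% with it removed. Cdkn2a, the locus of the p16 and p19 inhibitors of the cell cycle, was at 4.49 and 4.40 against 2.19 to 2.78 (1.92 ± 0.17, SE; adjusted p = 0.0118), and this call held whichever line was left out. It was at 3.68 and 3.65 in ESC.1 and ESC.2, between 6.14 and 6.93 in SSCs and at 6.17 in MEFs. Bbc3, the apoptosis effector Puma, was at 5.47 and 5.69 against 4.13 to 4.50, but its difference of 1.23 fell to 0.63 after removal of the GC trend, and its call was lost without MASC.4 or MASC.5 (adjusted p up to 0.061).

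Of the loci that the strain names point to, the transcripts chosen for the list were not called. Gt(ROSA)26Sor (NR_027010), the noncoding transcript of the locus that carries lacZ in Rosa mice, was at 3.34 and 3.61 in OG, 3.75 and 3.81 in 129mix, and 3.65 and 3.58 in Rosa lines. Its difference was -0.22 ± 0.11 (SE; adjusted p = 0.286, limma), and no member of this list of 3 (with Pou5f1 and the neighbouring gene Thumpd3, at -0.81) was called. Another transcript of the locus, NR_027009, was at 0.09 and 0.20 in OG lines, at 3.26 and 3.20 in 129mix lines and at 2.08 and 2.15 in Rosa lines, and was called lower (-2.53, adjusted p = 0.0446). Of 24 genes known to vary between inbred strains, 1 was lower, Ttc30a1, a ciliary transport protein (1.19 and 1.05 against 2.24 to 2.60), beside 1.49% of all transcripts, and the median was 0.03. Of 11 with a GC value, 1 was lower with the trend kept and with it removed. Its adjusted p was 0.052 without MASC.4. Apobec3, a retrovirus restriction factor whose transcripts differ between strains, was at 0.91 and 0.88 against 3.71 to 4.29 in the transcript NM_030255, which was called lower (-3.15), and at 4.72 and 4.67 against 3.81 to 4.59 in NM_001160415.

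The OG difference of MASC lines was compared with that of the other cell types. Between ESC.1 (OG) and ESC.2 (129mix), with 1 line each and no test, 1133 transcripts (3.64%) were at least 1 higher and 854 (2.74%) at least 1 lower. Of the 359 transcripts higher in OG MASC lines, 140 (39.0%) differed by at least 1 in the same direction between the ESC lines and 7 (1.95%) in the opposite one, and 100 by less than 0.5. Of the 465 lower, 193 (41.5%) were in the same and 9 (1.94%) in the opposite direction, and 81 differed by less than 0.5. ESC.1 shares with the OG MASC lines the GC trend and a higher fibroblast sum (2217 against 760 in ESC.2).

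In SSCs, OG lines differed from the others in 3 transcripts (0.00964%), all microRNA hairpins under 100 bases (Mir194-1, Mir6948 and Mir1895) and all higher, while 58 were higher and 86 lower at an unadjusted p under 0.05 in limma. No SSC call was left without any of the 4 lines or with trend and robust estimation. The transcripts higher in OG MASC lines had medians of 0.23, -0.45, 0.55 and -0.33 in SSC.1 to SSC.4, each against the mean of the other 3, so that they split as the GC trend did and not by strain. The fibroblast sum split alike, at 1674, 330, 3526 and 574. By label, 6 of the 359 were in the same and 30 in the opposite direction by at least 1, and 6 and 30 of the 465. For Pou5f1 NM_013633, SSC.1 had 6.58, while SSC.2 to SSC.4 had 1.63, 1.24 and 2.68.

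The difference between the MASC and SSC comparisons was called in 68 transcripts (0.218%), 34 in each direction, in limma with Benjamini-Hochberg adjustment. Those named above are Baiap2l1, and Olig1, Olig2 and Atp6v0c-ps2, which were at most 0.97 in every SSC line. Without MASC.1 or MASC.2 it was 239 and 204, without MASC.3, MASC.4 or MASC.5 it was 23, 24 and 25, and without SSC.1, SSC.2, SSC.3 or SSC.4 it was 1099, 208, 214 and 554. With the replicate number of the lines as a block it was 0.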

How the data were processed

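RNA was sequenced from cultured mouse lines on an Illumina HiSeq 2000 after TruSeq library preparation. Per the labels and the study's methods, the authors aligned the reads to mm9 with TopHat2 2.0.11, left out PCR duplicates and reads aligning to several places, and ran Cufflinks with upper-quartile and GC-normalization. The authors deposited 1 table per sample with an FPKM for each RefSeq transcript and, beside it, the coverage that Cufflinks gave, a signal in reads per base. No file used here holds read counts, so the counting error of a value is unknown. At 1 FPKM the coverage of the MASC libraries was between 1.54 (MASC.2) and 2.78 (MASC.4) reads per base, and their total FPKM lay between 539428 and 648096.

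Of 33262 rows per file, the 32661 with a plain RefSeq accession were kept, and of these the 31123 on autosomes. Values were taken as log2(FPKM + 1), with a pseudocount of 1 and no filter on low values. The 2 OG MASC lines were compared with the 4 other MASC lines in limma 3.58.1 under R 4.3.3 (lmFit, then eBayes with no trend in the prior, two-sided), with the line as replicate and Benjamini-Hochberg adjusted p-values over the 31123 transcripts. A transcript was called at a log2 difference of at least 1 and an adjusted p under 0.05. Pairs of strains were compared in a fit with 3 strain groups, the SSC lines in a fit of their own, and the MASC and SSC differences in a fit of the 10 MASC and SSC lines. On simulated data for the comparison of OG with other MASC lines over 31123 transcripts, 187 of 200 transcripts changed by a log2 difference of 3 were recovered with 1 false call, and 134 of 200 changed by 1.5 with 2 false calls. The changed transcripts were drawn from those with a mean log2(FPKM + 1) of at least 4 in the other lines. The simulated noise was independent, with no GC trend, fibroblast share or division between transcripts of a locus. These rates therefore do not cover low transcripts or such shared shifts.

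GC content was taken from the GENCODE vM1 protein-coding transcripts of the same build, and its trend was removed by lowess with a span of 0.3. The lines, the gene lists and the rules were chosen with earlier results of these data known. Named transcripts are the 12 largest called differences in each direction, with 1 transcript per symbol and at least 200 bases, up to 4 called members in each direction of every list (or the 2 largest differences where none was called), and Pou5f1, Nanog, Sox2 and Gt(ROSA)26Sor. Other list members and transcripts that are named were picked after their values were seen. The alternatives were a pseudocount of 0.1, a filter on low values, quantile normalization, other thresholds, other groupings and fits, sums per gene symbol, all chromosomes, transcripts low in MEFs, and each line left out in turn. The 3 alternatives chosen after the data had been seen were the restriction to transcripts with a GC value, the removal of the GC trend, and the restriction to transcripts of at least 200 bases. The HSC samples and the ChIP-seq data of the study were not used here.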

Additional observations from a re-analysis of the deposited data

Results flagged for a closer look

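The OG difference in MASC lines and the OG difference in SSC lines were not alike in 4 named transcripts, by a test of the difference between them (limma, Benjamini-Hochberg). For Baiap2l1 the MASC difference exceeded the SSC difference by 5.52 (log2 scale). For Olig1, Olig2 and Atp6v0c-ps2 the MASC difference was lower than the SSC difference, by -3.79, -3.57 and -7.38. In SSC lines these transcripts were at most 0.22, 0.06 and 0.97, so an SSC difference could hardly be large. For them the test mostly restates the MASC difference. With the replicate number of the lines as a block, none of the 68 transcripts called in this test passed.

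In 5 named transcripts, a line stood far from the other 3 among the 4 lines that are not OG, by the gap to its nearest neighbour over the whole range (Dixon's test). The value was 0.904 for Btg3, where MASC.4 was lowest, 0.849 for Fos, where MASC.5 was highest, and 0.900 for Psmb9, where MASC.5 was lowest. For Dppa2 it was 0.987 and for Suz12 it was 0.899, with MASC.6 lowest in both. Chance marks about 1 in 20 groups in this way, and 68 groups were examined. In each of the 5, the OG lines lay outside the range of the 4 other lines.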

How the results depend on the processing

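The counts of 359 transcripts higher and 465 lower in OG lines moved with the settings, always with transcripts called in both directions. A pseudocount of 0.1 gave 577 higher and 855 lower, and a log2 difference of at least 2 gave 77 and 73. With 3 strain groups 198 were higher, and with all 12 SSC, MASC and ESC lines in the fit 100 were higher and 115 lower. The filter for 1 FPKM in at least 2 lines gave 800 higher, the raw p 944, and the set of coding transcripts with a GC value 684, while 278 were lower once the GC trend had been removed. Among the 16770 transcripts under 1 FPKM in MEFs, which can be low in MASC lines too, 22 were higher and 77 lower. Against 129mix alone the counts were 133 and 224, and against Rosa alone 116 and 212. With each line left out in turn, 113 to 779 were higher and 198 to 434 lower, the largest move up being without MASC.2 and the largest moves down without MASC.4.

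The 2 calls between 129mix and Rosa became 14 with a pseudocount of 0.1, 9 with the filter, 4 with trend and robust estimation, 182 at raw p, and 25 to 40 without one of their own lines (2 to 40 over all lines left out). For OG against 129mix, 357 calls became 615 (pseudocount), 1223 (filter) and 1522 (raw p), with 56 to 461 when a line was left out. For OG against Rosa, 328 became 535, 1072 and 1384, with 18 to 466. The 3 SSC calls became 15, 20, 144 at raw p, and 0 under trend and robust estimation or without any line (0 to 0). The 68 calls of the test of MASC against SSC differences became 104, 45 and 1785, with 23 to 1099 when a line was left out.

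Same-numbered MASC and SSC lines deviated from their group means with correlations of 0.0568, 0.0568, -0.00775 and 0.0271 for numbers 1 to 4, so the numbers were not taken to pair the lines, and no source gives the pairing. The values for numbers 1 and 2 are equal by construction, since the deviations of 2 lines from their mean mirror each other. With the replicate block, 0 of the 68 transcripts passed.

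Among the recomputed values of named transcripts, 550 kept direction and call, 196 kept direction and lost the call, and 2 gained it. The 3 that changed sign were small or composite. Summed over its transcripts, Pou5f1 NM_001252452 went to 0.027, Pou5f1 NM_013633 was -0.011 after removal of the GC trend, and Nanog was -0.31 without MASC.1 (-0.31 to 0.80 with a line left out). The cause was not tested. Of 47 called named transcripts, 18 stayed called whichever line was left out. Depth is unknown in reads, and values under 1 FPKM rest on few reads per base.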

Other observations

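Medians over chromosomes were taken from the transcripts with a mean FPKM of at least 5. The median difference of OG from other MASC lines lay between -0.21 on chromosome 13 and 0.18 on chromosome 7, the chromosomes whose transcripts had a median GC content of 47.9% and 55.0%. Chromosome 19 stood apart in a line that is not OG, since MASC.3 lay 0.26 above the mean of the other 5 MASC lines there, over 350 transcripts, and 0.29 above the lines of other strains. At a mean FPKM of at least 1 the value was 0.22, over 541 transcripts. These are values with no test.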
